A study of Mus musculus with 20 samples.

Results

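The potassium channel genes are the genes whose mouse symbol begins with Kcn, without Kcnj13 and without antisense or overlapping transcripts that borrow a channel's name. Of 55487 gene entries, 93 were members. Besides Kcnj13, 5 such transcripts were left out, Kcnab3os, Kcnd3os, Kcnmb4os1, Kcnmb4os2 and Kcnq1ot1, the last an overlapping transcript of Kcnq1. The members were sorted by their protein families into 16 subfamilies, from pore-forming alpha subunits to auxiliary beta subunits.

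Libraries of poly(A) RNA came from NMRI mice, an outbred stock, all of which had undergone surgical removal of the olfactory bulbs. There were 4 groups of 5 libraries: hippocampus with YB-1, hippocampus with HSP70, cortex with YB-1 and cortex with HSP70. Recombinant YB-1 (6.4 µg) or recombinant human HSP70 (4 µg) was given through the nose once daily for 21 days, beginning 14 days after surgery. YB-1 is a nucleic-acid-binding cold shock protein and HSP70 a stress-inducible chaperone. Both arms were operated and treated, so a difference between them has no untreated level behind it, and vehicle-treated or unoperated animals were not analysed here. The labels do not name the animal behind each library, so p-values measure the spread between these libraries.

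Potassium channels let potassium leave a neuron and so set its resting potential, repolarise the action potential and limit repeated firing. Voltage-gated Kv channels open on depolarisation, calcium-activated BK and SK channels follow calcium entry, sodium-activated channels follow sodium entry, and inward rectifiers and two-pore channels act near rest. Many Kv alpha subunits are silent alone and alter Kv2 channels by joining their tetramers. In the hippocampus and cortex these genes help to give each neuron type its firing pattern, while astrocytes take up potassium through Kir channels.

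Assigned reads per library ranged from 7236195 to 10166968 in hippocampus with YB-1, from 7756835 to 13053910 in hippocampus with HSP70, from 6414215 to 10763465 in cortex with YB-1 and from 12283392 to 15148078 in cortex with HSP70. The cortical treatments therefore did not overlap in depth. Members held 0.34% to 0.468% of a library's assigned reads, with group means of 0.421% in hippocampus with YB-1, 0.419% in hippocampus with HSP70, 0.424% in cortex with YB-1 and 0.42% in cortex with HSP70. The tissue labels were borne out by their markers, with all 5 dentate granule cell markers higher in hippocampus than in cortex in both treatments and 5 of 7 cortical layer markers with YB-1 and 6 of 7 with HSP70 lower. The layer marker Fezf2 was higher in hippocampus with HSP70.

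Of the 93 members, 72 averaged at least 1 CPM (a read count scaled by TMM to the size of its library) over the 20 libraries, 49 at least 10 CPM, 15 at least 50 CPM and 9 at least 100 CPM. A further 19 members stayed below the filter on low counts and were not tested between tissues; their means were at most 0.697 CPM (Kcnq1), and Kcne1, Kcnk18 and Kcnv2 had no read in any library. The other 74 members were tested between tissues, and 71 in each treatment comparison.

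Compared per kilobase of exon, which allows genes to be set beside each other, the auxiliary subunit Kcnab2 had the highest level, 229 CPM per kb. It encodes a Kv beta subunit that binds Kv1 channels. Kcnj4, a strong inward rectifier, was next at 79.1 CPM per kb, then Kcnip2, a calcium-sensing partner of Kv4 channels, at 50.6 CPM per kb. Kcnj10, the main Kir channel of astrocytes, reached 43.8 CPM per kb, and Kcnc4 of the fast-gating Kv3 family reached 40.9 CPM per kb. These levels are means with no test. Within a subfamily the levels spread widely. Among KChIP subunits, for example, Kcnip2 reached 50.6 and Kcnip4 reached 4.47 CPM per kb. Leading members elsewhere were Kcnh3 among Kv10 to Kv12 channels at 35.4 CPM per kb, Kcnk1 among two-pore channels at 29.6, Kcna6 among Kv1 channels at 14.6 and Kcns1 among silent subunits at 11.7 CPM per kb. Lower leaders were Kcnd2 of Kv4 at 5.42 CPM per kb, Kcnn1 of the SK channels at 5.11, Kcnt1 of the sodium-activated pair at 4.28, Kcne1l of the KCNE subunits at 3.77, Kcnma1 of the BK group at 2.72 and the regulator Kcnrg at 0.116 CPM per kb.

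**Figure D1:**
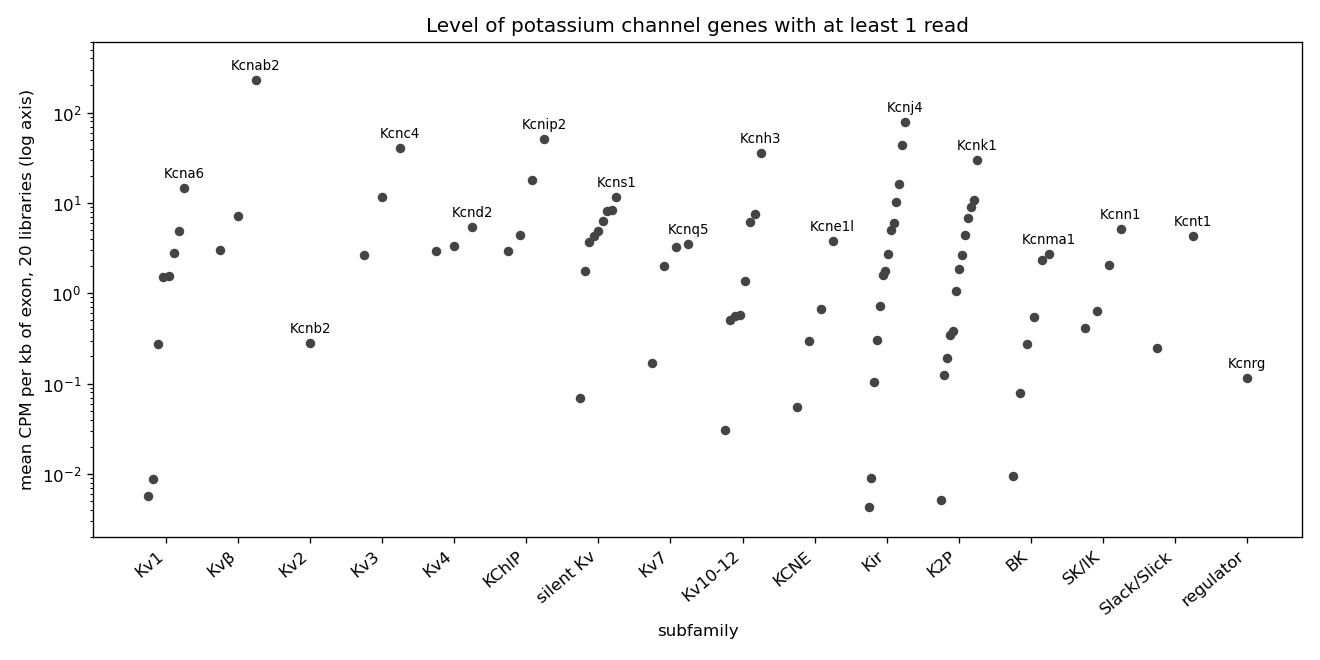
Mean CPM per kb of exon over 20 libraries (log axis) of 87 potassium channel genes with at least 1 read, 1 point a gene, by subfamily (x axis); the highest gene drawn in each subfamily is named, and 3 members with reads are not drawn, beside the 3 members with no read. Kcnab2 at 229 CPM per kb stands highest, and most subfamilies span more than one order of magnitude.

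Between tissues, channel genes of several families were lower in hippocampus than in cortex, above all the Kv10 to Kv12 group (Kcnh1, Kcnh3, Kcnh4, Kcnh7), the silent subunits Kcnf1, Kcns1 and Kcnv1, and the sodium-activated channel Kcnt1. A smaller set, led by the silent subunit Kcng2, was higher in hippocampus. That set was 5.41% of the tested members with YB-1 and 6.76% with HSP70, nearer to the shares of all genes below than the lower set was. With YB-1, 20 of 74 members passed an adjusted p of 0.05 (27%; 4 higher and 16 lower), against a background of 6.51% of all 14616 genes tested (3.3% higher and 3.21% lower). With HSP70, 22 of 74 passed (29.7%; 5 higher and 17 lower), against 8.61% of all genes (4.85% higher and 3.76% lower). The median log2 fold change, hippocampus over cortex, was -0.24 over the members and 0.0024 over all genes with YB-1, and -0.14 over the members and 0.0055 over all genes with HSP70. Values above 0 were found for 25 of 74 members with YB-1 (50.3% of all genes) and 29 of 74 with HSP70 (50.7% of all genes). An unadjusted p under 0.05 was found for 34 members with YB-1 (45.9%, against 16.7% of all genes) and 32 with HSP70 (43.2%, against 20.1%).

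The ranges of the 5 hippocampal and 5 cortical libraries did not overlap for 4 members that were higher and 13 that were lower in hippocampus with YB-1, where the background was 3.35% of genes higher and 3.08% lower. With HSP70 this held for 4 higher and 15 lower members, with a background of 4.74% and 4.01%. Both treatments, which share no library but are fitted with 1 estimate of the spread, called 17 members in the same direction (23% of 74, against 4.92% of all genes), of which 14 were lower (18.9%, against 2.33%) and 3 were higher (4.05%, against 2.59%). A further 8 members were called with 1 treatment only. Log2 fold changes of the 17 ran from -2.05 to -0.586 for the lower and from 0.705 to 2.39 for the higher. In all 10 same-numbered pairs of hippocampal and cortical libraries each of the 14 was the lower one in hippocampus, and each of the 3 the higher; the same values picked these genes, so this only describes them. In bulk tissue, fewer cells of a type and less RNA per cell cannot be told apart.

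**Figure D2:**
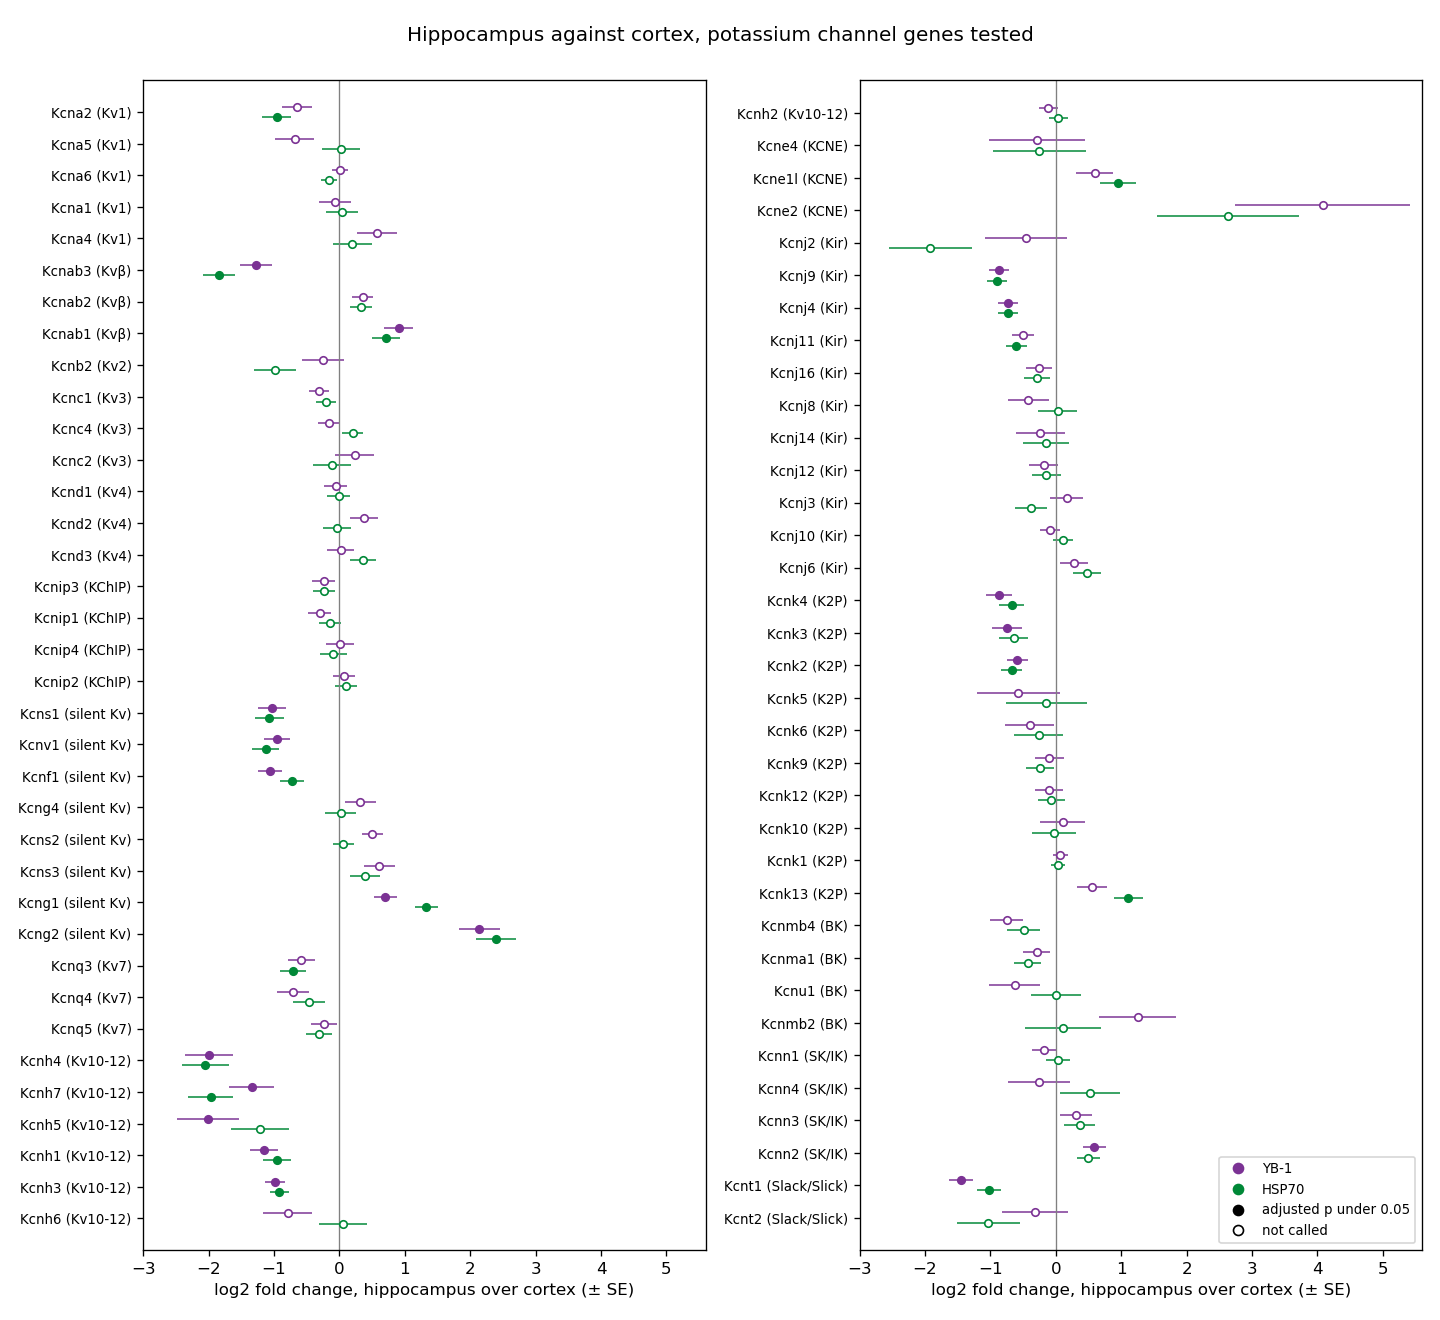
Log2 fold change of hippocampus over cortex (x axis, ± SE) of 71 of the 74 tested potassium channel genes, by subfamily; YB-1 lies above HSP70 in each pair and filled points passed an adjusted p of 0.05. Filled points gather left of 0 in the Kv10 to Kv12 group and right of 0 at Kcng2, at 2.14 with YB-1 and 2.39 with HSP70.

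The Kv10 to Kv12 channels (EAG, ERG and ELK) open slowly or at subthreshold voltages and steady the firing of neurons. Of their 7 tested members, 5 with YB-1 and 4 with HSP70 were lower in hippocampus and none was higher. Kcnh4, an ELK channel, had 2.03, 3.63, 2.27, 1.22 and 2.24 CPM in hippocampus with YB-1, against 7.59, 8.14, 6.67, 16.9 and 6.7 CPM in cortex with YB-1. With HSP70 it had 1.43, 2.24, 4.18, 1.32 and 0.601 CPM in hippocampus, against 6.58, 7.45, 9.3, 8.74 and 9 CPM in cortex. Tissue ranges were separate in both treatments. Its log2 fold change was -1.99 ± 0.365 (SE, adjusted p = 0.000798) with YB-1 and -2.05 ± 0.363 (adjusted p = 0.00039) with HSP70. The cortical YB-1 replicate 4, at 16.9 CPM, is also the cortical library with the most striatal marker RNA, a summed 652 CPM over 6 markers, against 168 to 279.7 CPM in the other 9 cortical libraries. Without that library the Kcnh4 change with YB-1 was -1.67 (adjusted p = 0.00357).

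Kcnh3, another ELK channel and the most abundant of the group, had 124, 159.96, 126, 146 and 112 CPM in hippocampus with YB-1, against 216, 301, 238, 363 and 206 CPM in cortex with YB-1. In HSP70 animals it had 127, 138, 155, 143 and 158 CPM in hippocampus, against 209, 269.9, 279, 295 and 308 CPM in cortex. Every cortical library lay above every hippocampal one. The log2 fold changes were -0.988 ± 0.15 (adjusted p = 8.7e-05) with YB-1 and -0.918 ± 0.15 (adjusted p = 0.00016) with HSP70. Kcnh3 shares annotated exon sequence with Mcrs1 and Kcnh7 with Gca, and as the strand setting of the read counting is not given in the sources used here, the reads of such overlapping genes are uncertain.

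Kcnh1, the EAG channel, had 42.8, 28.8, 26.9, 18.3 and 24.3 CPM in hippocampus with YB-1, against 69.6, 32, 77.3, 62.2 and 71.2 CPM in cortex. Its cortical replicate 2 lay inside the hippocampal range, while with HSP70 the tissues were apart, at 21.9 to 36.3 CPM in hippocampus and 51.3 to 70.6 CPM in cortex. The log2 fold change was -1.15 ± 0.213 (adjusted p = 0.000889) with YB-1 and -0.955 ± 0.21 (adjusted p = 0.00354) with HSP70. Kcnh7, an ERG channel, changed by -1.34 ± 0.347 (adjusted p = 0.0168) with YB-1 and -1.97 ± 0.348 (adjusted p = 0.00038) with HSP70. Its HSP70 cortex held 1 high library, replicate 1 at 28.6 CPM, with 10.6 to 13.6 CPM in the other 4. The YB-1 call of Kcnh7 was lost without hippocampal replicate 2, without hippocampal replicate 3 or without cortical replicate 5 (adjusted p 0.0523 to 0.0554).

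Kcnh5, the second EAG channel, was called with YB-1 (-2.01 ± 0.476, adjusted p = 0.00842) and not with HSP70 (-1.21 ± 0.442, adjusted p = 0.0953). The HSP70 value passed with a replicate block (adjusted p = 0.0384), with limma-voom, and without hippocampal HSP70 replicate 4 (adjusted p = 0.0343), so the treatments are not shown to differ. Kcnh2 and Kcnh6, both ERG channels, were called in neither treatment. Kcnh2 had -0.112 with YB-1 and 0.0401 with HSP70, and Kcnh6 had -0.792 with YB-1 and 0.0546 with HSP70, on the log2 scale.

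Of the Kv2 alpha subunits, Kcnb2, a delayed rectifier channel, was not called, at -0.252 ± 0.324 with YB-1 (adjusted p = 0.829) and -0.991 ± 0.322 with HSP70 (adjusted p = 0.0561).

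The silent subunits moved in both directions. Of 8 tested, 3 were lower and 2 higher in hippocampus in each treatment. Kcns1 had 19, 24.3, 20.8, 26.1 and 19.3 CPM in hippocampus with YB-1, against 41.5, 55.1, 27.7, 69.9 and 30.8 CPM in cortex, and 17.1, 11.9, 24.6, 20.8 and 23.3 CPM in hippocampus with HSP70, against 33.1, 43.7, 39.3, 41.3 and 47.5 CPM in cortex. Its tissues were separate in both treatments, with log2 fold changes of -1.03 ± 0.218 (adjusted p = 0.00322) with YB-1 and -1.07 ± 0.217 (adjusted p = 0.00175) with HSP70. Kcnv1 changed by -0.953 ± 0.205 with YB-1 and -1.13 ± 0.202 with HSP70, again with no overlap. For Kcnf1 the log2 fold change was -1.06 ± 0.189 with YB-1, where the tissues were apart at 18.9 to 27.8 CPM in hippocampus and 37.1 to 67.9 CPM in cortex. With HSP70 it was -0.721 ± 0.186, and hippocampal replicate 1 at 47.3 CPM lay inside the cortical range of 45.1 to 66 CPM.

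Kcng2 had the largest positive change among called members in both treatments. It had 18.2, 42, 25.2, 44.5 and 27.3 CPM in hippocampus with YB-1, against 3.75, 8.27, 5.66, 11.2 and 7.36 CPM in cortex. In HSP70 animals it had 16.4, 26, 30.7, 29.7 and 53.5 CPM in hippocampus, against 3.67, 6.04, 6.49, 7.45 and 5.95 CPM in cortex. All hippocampal libraries exceeded all cortical ones, with log2 fold changes of 2.14 ± 0.31 (adjusted p = 5.22e-05) with YB-1 and 2.39 ± 0.307 (adjusted p = 8.35e-06) with HSP70. Its exons overlap D330025C20Rik.

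Kcng1, of the same Kv6 branch, had 45.8, 64.7, 33.7, 43.2 and 42.6 CPM in hippocampus with YB-1, against 19.9, 32.6, 25.5, 34.9 and 28.9 CPM in cortex, where cortical replicate 4 passed the lowest hippocampal value. With HSP70 it had 51, 62.8, 58.8, 37.2 and 54.4 CPM in hippocampus, against 18.4, 20.5, 21.2, 24 and 20.9 CPM in cortex, with no overlap. The log2 fold changes were 0.705 ± 0.175 (adjusted p = 0.0123) with YB-1 and 1.33 ± 0.175 (adjusted p = 1.03e-05) with HSP70, and the YB-1 call was lost without hippocampal replicate 2 (0.552, adjusted p = 0.0616). The difference between these 2 values, tested as an interaction, was -0.623 ± 0.246 with an unadjusted p of 0.0181 and an adjusted p of 1. Among uncalled silent subunits, Kcns2 had 0.503 with YB-1 and 0.0626 with HSP70, and Kcns3 had 0.609 with YB-1 and 0.387 with HSP70.

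**Figure D3:**
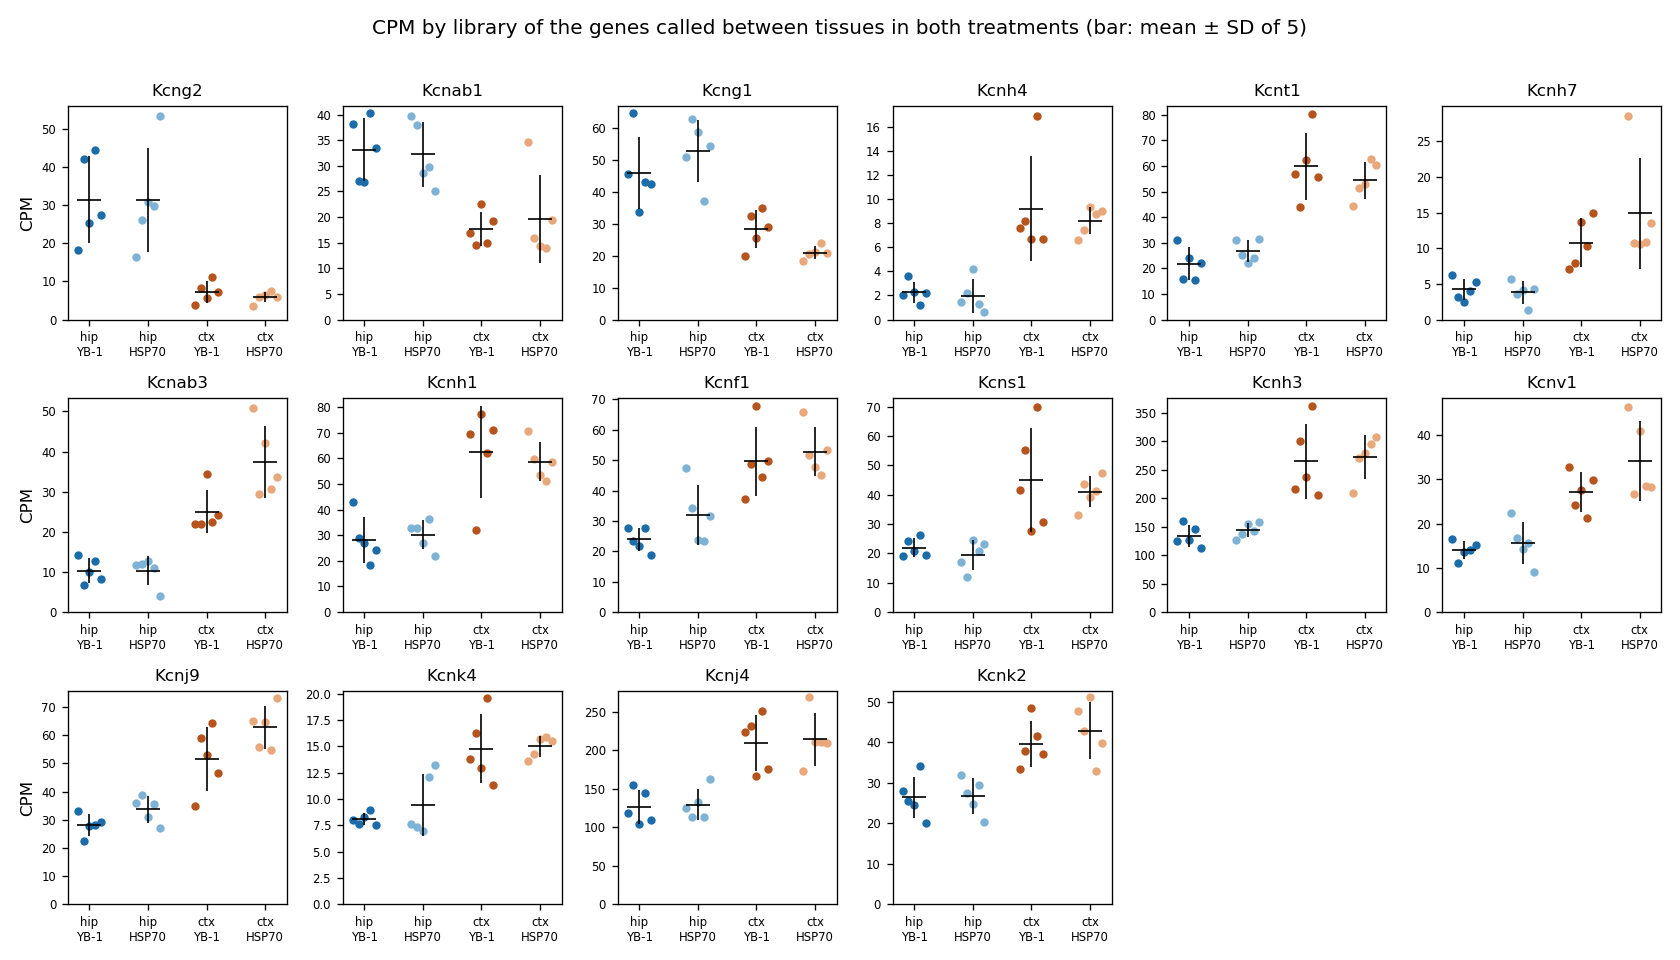
CPM of each library (points) with the mean and SD of 5 (bars) for 16 of the 17 potassium channel genes called in the same direction in both treatments; hippocampus (hip) lies left of cortex (ctx), and YB-1 left of HSP70. Kcng2, Kcnab1 and Kcng1 are higher in hippocampus, and the other 13 genes drawn are lower.

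The sodium-activated channel Kcnt1, which slows firing after bursts, had 31.2, 16, 24.1, 15.6 and 22.3 CPM in hippocampus with YB-1, against 56.9, 43.9, 62.4, 80.2 and 55.7 CPM in cortex. With HSP70 it had 31.2, 25.1, 22.2, 24 and 31.3 CPM in hippocampus, against 44.2, 51.4, 53, 62.6 and 60.5 CPM in cortex. Its tissues were separate in both treatments. The log2 fold change was -1.45 ± 0.185 (adjusted p = 7.71e-06) with YB-1, the smallest p of any member there, and -1.02 ± 0.182 (adjusted p = 0.00041) with HSP70. Its relative Kcnt2 was not called, at -0.321 with YB-1 and -1.03 with HSP70.

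The 3 Kv beta subunits, which bind Kv1 channels, went different ways. Kcnab3 had 14.2, 6.77, 9.86, 12.6 and 8.21 CPM in hippocampus with YB-1, against 22, 22, 34.4, 22.4 and 24.2 CPM in cortex. In HSP70 animals the values were 11.8, 12, 12.8, 10.9 and 4.06 CPM in hippocampus, against 50.9, 29.5, 42.2, 30.6 and 33.7 CPM in cortex. Nothing overlapped, and Kcnab3 changed by -1.28 ± 0.247 (adjusted p = 0.00133) with YB-1 and -1.84 ± 0.246 (adjusted p = 1.2e-05) with HSP70. Its antisense neighbour Kcnab3os averaged 0.0826 CPM over all libraries.

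Kcnab1 was higher in hippocampus, with 38.2, 27.1, 26.8, 40.2 and 33.4 CPM there with YB-1, against 16.9, 14.6, 22.5, 14.9 and 19.2 CPM in cortex. With HSP70 it had 39.8, 38, 28.5, 29.7 and 25.1 CPM in hippocampus, against 34.6, 16, 14.3, 13.9 and 19.4 CPM in cortex. Only cortical HSP70 replicate 1, at 34.6 CPM, entered a hippocampal range. The log2 fold change was 0.906 ± 0.22 (adjusted p = 0.0103) with YB-1 and 0.714 ± 0.216 (adjusted p = 0.038) with HSP70. The HSP70 call was lost without any 1 of hippocampal replicates 1, 2 and 4 or of cortical replicates 2, 3, 4 and 5 (adjusted p 0.0558 to 0.116) and in a fit of the 2 HSP70 groups alone (adjusted p = 0.0854). Kcnab2 was not called, at 0.356 ± 0.163 with YB-1 and 0.332 ± 0.163 with HSP70. Kcnab1 shares exon sequence with A330015K06Rik.

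Among 11 tested inward rectifiers, 2 were lower with YB-1 and 3 with HSP70. Kcnj4 had 118, 155, 105, 145 and 109 CPM in hippocampus with YB-1, against 224, 231, 167, 251 and 176 CPM in cortex. It had 125, 114, 133, 113 and 163 CPM in hippocampus with HSP70, against 173, 269, 211, 211 and 209 CPM in cortex. The ranges were apart, and the log2 fold changes were close in size, -0.731 ± 0.15 (adjusted p = 0.00241) with YB-1 and -0.73 ± 0.15 (adjusted p = 0.00191) with HSP70. Kcnj9, a subunit of the G protein-gated GIRK channels that answer GABA-B receptors, had 33, 22.5, 27.7, 28.3 and 29.3 CPM in hippocampus with YB-1, against 34.9, 59, 52.9, 64.2 and 46.5 CPM in cortex. With HSP70 it had 36.1, 38.7, 30.9, 35.7 and 27 CPM in hippocampus, against 65.2, 55.7, 64.7, 54.9 and 73.2 CPM in cortex. Within each treatment the tissues did not overlap, though with YB-1 the margin was small (33 against 34.9 CPM). Across treatments they did, as hippocampal HSP70 replicates 1, 2 and 4 (36.1, 38.7 and 35.7 CPM) lay above cortical YB-1 replicate 1 at 34.9 CPM. Kcnj9 changed by -0.867 ± 0.155 (adjusted p = 0.00058) with YB-1 and -0.896 ± 0.153 (adjusted p = 0.00027) with HSP70. Its exons overlap Gm36937.

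The other GIRK subunits were not called. Kcnj3 had 0.167 ± 0.249 with YB-1 and -0.38 ± 0.247 with HSP70, and Kcnj6 had 0.278 ± 0.215 with YB-1 and 0.482 ± 0.213 with HSP70. Kcnj11, the pore of ATP-sensitive channels, was called with HSP70 (-0.602 ± 0.167, adjusted p = 0.0214) and not with YB-1 (-0.499 ± 0.167, adjusted p = 0.0796). Its HSP70 call was lost without any 1 of hippocampal replicates 1, 2 and 4 or cortical replicates 4 and 5 (adjusted p 0.0502 to 0.0789), and its YB-1 value passed without cortical replicate 5 (adjusted p = 0.0494) and in DESeq2 (adjusted p = 0.0491). Kcnj10 and Kcnj16, Kir channels of glia, were at -0.0934 ± 0.154 and -0.261 ± 0.196 with YB-1 and at 0.115 ± 0.154 and -0.29 ± 0.194 with HSP70, and Kcnj8, a channel of mural cells, was at -0.42 ± 0.309 with YB-1 and 0.0283 ± 0.299 with HSP70. None of these was called. Of the 6 astrocyte markers none with YB-1 and 1 with HSP70 was called, and none of the 6 mural markers. All 5 oligodendrocyte markers were higher in hippocampus in both treatments, at a summed 3309 to 6339 CPM in hippocampus and 1256 to 2376 CPM in cortex. Of 4 thalamic markers, 2 were higher in hippocampus in both treatments, with sums of 55.7 to 178 CPM in hippocampus and 18.7 to 40.8 CPM in cortex with YB-1, and of 54.6 to 232 CPM in hippocampus and 26.3 to 35.1 CPM in cortex with HSP70. Of 6 meningeal markers, 1 was higher and 3 were lower in hippocampus with YB-1 (sums of 612 to 1233 CPM in hippocampus and 1513 to 2329.8 CPM in cortex), and 1 was higher with HSP70 (971 to 1988 CPM in hippocampus and 1325 to 2566 CPM in cortex). The part of these markers in the channel results was not tested.

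Two-pore channels carry leak current. Of 10 tested, 3 were lower with YB-1, and 2 were lower and 1 higher with HSP70. Kcnk2 and Kcnk4, stretch- and lipid-sensitive channels, were lower in both, Kcnk2 at -0.586 ± 0.161 (adjusted p = 0.0253) with YB-1 and -0.672 ± 0.159 (adjusted p = 0.00665) with HSP70, and Kcnk4 at -0.866 ± 0.194 (adjusted p = 0.00545) with YB-1 and -0.672 ± 0.19 (adjusted p = 0.0253) with HSP70. The YB-1 call of Kcnk2 was lost without any 1 of hippocampal replicates 2, 3 and 5 or cortical replicates 3 and 4 (adjusted p 0.0524 to 0.0893). The HSP70 call of Kcnk4 was lost without any 1 of hippocampal replicates 1, 2 and 3 or cortical replicates 3, 4 and 5 (adjusted p 0.0515 to 0.084), with no filter on low counts and in a fit of the 2 HSP70 groups alone (adjusted p 0.0505 and 0.0574). Kcnk4 exons overlap Catsperz, Kcnk2 exons overlap A430027H14Rik and Kcnk3 exons overlap Gm9899.

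Kcnk3, an acid-sensitive leak channel, was called with YB-1 (-0.746 ± 0.223, adjusted p = 0.0434) and not with HSP70 (-0.646 ± 0.221, adjusted p = 0.0722). The YB-1 call was lost without any 1 of hippocampal replicates 1, 2, 3 and 5 or cortical replicates 2 and 4 (adjusted p 0.0616 to 0.168), with limma-voom (adjusted p = 0.118) and in a fit of the 2 YB-1 groups alone (adjusted p = 0.0674). The HSP70 value passed with a replicate block (adjusted p = 0.0101), with limma-voom (adjusted p = 0.00187), and without hippocampal HSP70 replicate 5 or cortical HSP70 replicate 1 (adjusted p 0.0358 to 0.0383). Kcnk13, known as a microglial leak channel, had 17.3, 16.3, 17, 27.8 and 25.7 CPM in hippocampus with HSP70, against 6.38, 9.68, 10.6, 10.1 and 11.5 CPM in cortex. It was called there without overlap (1.11 ± 0.222, adjusted p = 0.00148), and had 0.553 ± 0.225 with YB-1 (adjusted p = 0.183). None of the 4 microglial markers was called between tissues in either treatment. Kcnk1 was not called, at 0.0673 ± 0.115 with YB-1 and 0.0342 ± 0.114 with HSP70.

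In the remaining families few members were called. The 4 Kv3 channels of fast-spiking neurons, the 3 Kv4 channels, the 4 KChIP subunits and the 4 tested BK genes gave no call in either treatment. Of 7 interneuron markers, 2 with YB-1 and 3 with HSP70 were lower in hippocampus. Kcnc1 had log2 fold changes of -0.316 ± 0.155 with YB-1 and -0.206 ± 0.155 with HSP70, and Kcnd2 had 0.37 ± 0.214 with YB-1 and -0.038 ± 0.21 with HSP70. Kcnip2 had 0.0678 ± 0.169 with YB-1 and 0.108 ± 0.168 with HSP70, and Kcnma1 had -0.291 ± 0.206 with YB-1 and -0.43 ± 0.204 with HSP70. Of 5 tested Kv1 channels, Kcna2, which speeds repolarisation in axons, was called with HSP70, at 63.4, 45.6, 41.2, 39.4 and 27.5 CPM in hippocampus, against 124, 72, 78.6, 78.3 and 69.98 CPM in cortex, without overlap (-0.96 ± 0.226, adjusted p = 0.00656). With YB-1 it had -0.645 ± 0.227 (adjusted p = 0.101), which passed with a replicate block (adjusted p = 0.00603), with limma-voom (adjusted p = 0.0131), and without hippocampal YB-1 replicate 1 (adjusted p = 0.0438). Kcna1 and Kcna6 were not called, with Kcna1 at -0.0637 and Kcna6 at 0.00359 with YB-1, and Kcna1 at 0.0435 and Kcna6 at -0.162 with HSP70.

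Kv7 channels carry the M current, which runs below the spike threshold. Kcnq3 was lower with HSP70 (-0.705 ± 0.201, adjusted p = 0.0267) and had -0.582 ± 0.202 with YB-1 (adjusted p = 0.0943). The HSP70 call of Kcnq3 was lost without any 1 of hippocampal replicates 2 and 4 or cortical replicates 1, 4 and 5 (adjusted p 0.0524 to 0.0866), and the YB-1 value passed without cortical replicate 3 (adjusted p = 0.0347). Of the calcium-activated SK and IK channels, Kcnn2, which shapes the afterhyperpolarisation, was higher with YB-1 at 18.5, 17.2, 18.4, 19.2 and 15.9 CPM in hippocampus, against 11.2, 11.8, 14.7, 8.44 and 12.8 CPM in cortex (0.587 ± 0.177, adjusted p = 0.0454). That call was lost in the blocked fit (adjusted p = 0.0516), with no filter on low counts (adjusted p = 0.127), in a fit of the 2 YB-1 groups alone (adjusted p = 0.0676), and without any 1 of the 10 YB-1 libraries except cortical replicate 3 (adjusted p 0.0563 to 0.121). With HSP70 Kcnn2 had 0.5 ± 0.174 (adjusted p = 0.0769), which passed in DESeq2 and limma-voom and without hippocampal HSP70 replicate 5 (adjusted p = 0.0164). Kcnn2 exons overlap A330093E20Rik and AC121957.1. Kcnn1 and Kcnn3 were not called, at -0.181 and 0.308 with YB-1 and at 0.0328 and 0.363 with HSP70.

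KCNE subunits are small membrane proteins that retune Kv channels. Kcne1l was higher in hippocampus with HSP70 (0.952 ± 0.273, adjusted p = 0.0272) and had 0.593 ± 0.279 with YB-1 (adjusted p = 0.279). The HSP70 call was lost without any 1 of hippocampal replicates 4 and 5 or cortical replicates 1, 2 and 4 (adjusted p 0.054 to 0.0832) and with counts thinned to the assigned reads of the shallowest library (adjusted p = 0.112). Kcne2, a subunit known from choroid plexus epithelium, had 0.321, 5.08, 1.73, 1.62 and 1.59 CPM in hippocampus with YB-1, against 0.0893, 0, 0.303, 0 and 0.0943 CPM in cortex. In the HSP70 animals it had 0.287, 0.118, 0.102, 2.41 and 8.42 CPM in hippocampus, against 0, 0.0827, 0, 1.44 and 0.218 CPM in cortex. The YB-1 ranges were apart by a small margin and the HSP70 ranges overlapped, and neither comparison was called (4.08 ± 1.34, adjusted p = 0.0781, with YB-1, and 2.63 ± 1.09, adjusted p = 0.16, with HSP70). The summed choroid plexus markers, in the same order of libraries, were at 134, 1017, 527, 711 and 375 CPM in hippocampus with YB-1, against 9.2, 45.3, 33.7, 9.55 and 13.5 CPM in cortex, and at 53.8, 155, 35.5, 793 and 1645 CPM in hippocampus with HSP70, against 16.2, 11.2, 12.8, 157 and 21.6 CPM in cortex. The match was not complete, as the cortical YB-1 library at 45.3 CPM had Kcne2 at 0. Of 6 markers, 5 with YB-1 and 3 with HSP70 were called, all higher in hippocampus, and their part in the Kcne2 values was not tested.

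**Figure D4:**
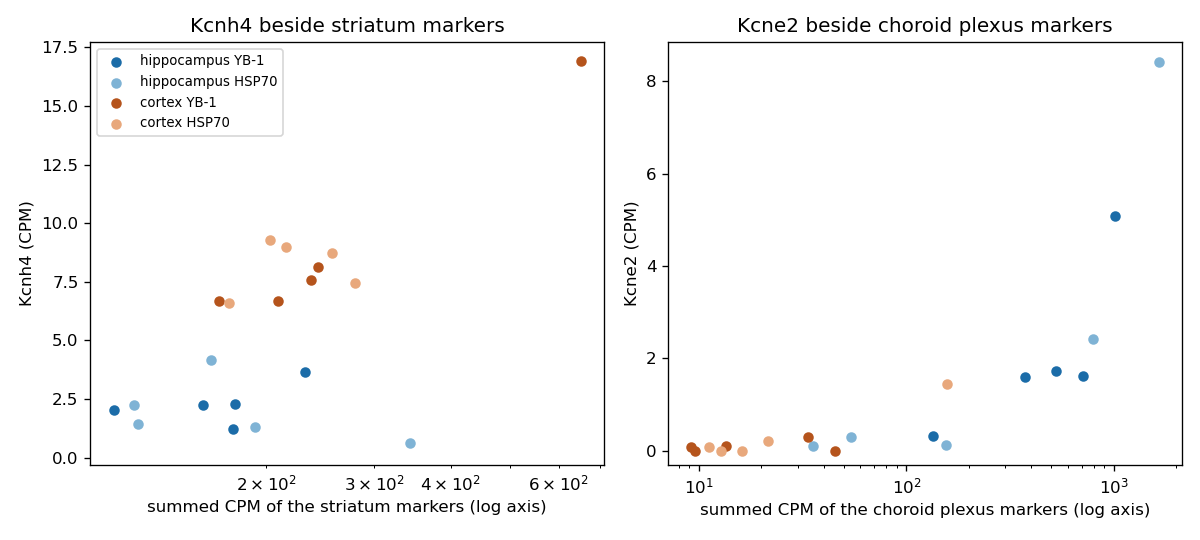
Left, Kcnh4 (CPM) against the summed CPM of 6 striatum markers, and right, Kcne2 (CPM) against the summed CPM of 6 choroid plexus markers (both x axes log), 1 point a library, coloured by group. The cortical YB-1 library at 652 striatal CPM holds the highest Kcnh4 level, 16.9 CPM, and the hippocampal HSP70 library at 1645 choroid plexus CPM holds the highest Kcne2 level, 8.42 CPM.

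Promoters of some members called between tissues in both treatments are shown to let their base composition be seen beside the levels above. Windows of 250 bases before the annotated start, from RefSeq on GRCm38.p6, matched 68 of the 93 members, 9 of the 14 lower genes and 1 of the 3 higher ones. The 4 lower genes Kcnh4, Kcns1, Kcnj9 and Kcnj4 and the higher gene Kcnab1 (1 of its 3 listed starts) are given 5′ to 3′; they and the motifs were chosen after the values were seen. Capitals mark the GC box, GGGCGG or CCGCCC on the other strand.
Kcnh4, chr11:100759779-100760028, minus strand: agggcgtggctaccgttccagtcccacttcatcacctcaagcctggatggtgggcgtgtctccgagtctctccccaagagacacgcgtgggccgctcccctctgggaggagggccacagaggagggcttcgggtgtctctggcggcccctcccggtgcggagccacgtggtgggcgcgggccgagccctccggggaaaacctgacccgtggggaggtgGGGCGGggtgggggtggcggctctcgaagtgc
Kcns1, chr2:164171114-164171363, minus strand: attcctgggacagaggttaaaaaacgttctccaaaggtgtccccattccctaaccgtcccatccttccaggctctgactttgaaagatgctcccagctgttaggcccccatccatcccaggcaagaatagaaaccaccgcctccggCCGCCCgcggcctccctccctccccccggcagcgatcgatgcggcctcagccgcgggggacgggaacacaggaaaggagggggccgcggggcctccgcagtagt
Kcnj9, chr1:172329323-172329572, minus strand: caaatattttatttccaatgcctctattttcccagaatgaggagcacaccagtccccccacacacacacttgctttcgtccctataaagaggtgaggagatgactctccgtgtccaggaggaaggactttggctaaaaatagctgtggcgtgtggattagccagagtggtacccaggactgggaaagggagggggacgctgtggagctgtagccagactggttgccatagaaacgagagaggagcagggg
Kcnj4, chr15:79505242-79505491, minus strand: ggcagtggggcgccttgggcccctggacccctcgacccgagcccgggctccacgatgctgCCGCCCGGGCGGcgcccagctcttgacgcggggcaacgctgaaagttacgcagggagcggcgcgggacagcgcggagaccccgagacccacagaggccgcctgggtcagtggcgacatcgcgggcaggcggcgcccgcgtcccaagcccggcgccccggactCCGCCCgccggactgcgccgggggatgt
Kcnab1, chr3:64948962-64949211, plus strand: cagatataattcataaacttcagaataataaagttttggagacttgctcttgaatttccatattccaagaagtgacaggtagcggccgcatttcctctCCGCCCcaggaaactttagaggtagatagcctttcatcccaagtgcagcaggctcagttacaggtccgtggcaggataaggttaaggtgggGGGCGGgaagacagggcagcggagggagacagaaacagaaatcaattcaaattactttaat

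These windows run from GC-rich in Kcnj4 (77.2% G and C) and Kcnh4 (70.8%) to near balance in Kcnj9 (52%) and Kcnab1 (45.2%). Kcnj4 holds 3 GC boxes, 2 of them joined, Kcnab1 holds 2, Kcnh4 and Kcns1 hold 1 each, and Kcnj9 has none but has the letters TATAAA. Only the Kcnh4 window has the letters CACGTG. Of all 32851 RefSeq windows, 32.7% held a GC box on either strand, as did 45.2% of the 93 windows of the members and 7 of the 12 windows of the lower genes. TATAAA stood in 12.4% of all windows, 2.15% of the member windows and 1 of the 12. The CRE letters TGACGTCA stood in 1.55% of all windows and in none of the members'. CACGTG stood in 6.02% of all, 6.45% of the members' and 1 of the 12 windows of the lower genes. Of the 3 windows of the higher gene Kcnab1, 1 held a GC box, 0 held TATAAA and 2 held CACGTG. Median G and C content was 52.4% over all windows and 58.8% over the members'. These are counts of letters and not of bound sites.

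Partners of the channels were read from lists of genes. Of the 3 auxiliary subunits of Kv4 and Kv2 channels, Dpp10 was lower in hippocampus (-1.55 ± 0.312 with YB-1 and -1.47 ± 0.308 with HSP70) and Dpp6 higher (0.502 ± 0.114 with YB-1 and 0.506 ± 0.114 with HSP70), both called in both treatments. These related proteins both attach to Kv4 channels. Of 5 genes that couple GABA-B receptors to GIRK channels, Rgs7 and Rgs7bp were lower in both treatments, Rgs7 at -0.652 ± 0.127 with YB-1 and -0.732 ± 0.126 with HSP70, and Rgs7bp at -0.597 ± 0.149 with YB-1 and -0.811 ± 0.149 with HSP70. Of 8 genes for Kv1 clustering along axons, the scaffold Dlg1 was lower in both (-0.819 ± 0.185 with YB-1 and -0.911 ± 0.183 with HSP70), and with HSP70 Cntnap2 was lower (-0.45 ± 0.127) and Cntn2 higher (0.615 ± 0.158). No call came from the 5 genes for HCN channels and their partner, the 4 cation-chloride cotransporters, the 2 sulfonylurea receptors or the 2 tested BK gamma subunits.

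Between treatments, no potassium channel gene was called in either tissue. In hippocampus YB-1 against HSP70 gave 0 of 71 members at an adjusted p of 0.05 by edgeR, DESeq2 and limma-voom, and 0 of 71 at an unadjusted p of 0.05, where the backgrounds over all genes were 0% and 2.4%. In cortex 0 of 71 passed by the same 3 tools (background 0% by edgeR), and 4 of 71 (5.63%) had an unadjusted p under 0.05, against 5.48% of all genes. No member had ranges that failed to overlap between the treatments, against 0.175% of genes higher and 0.299% lower in hippocampus and 0.312% higher and 0.517% lower in cortex. The median log2 fold change, YB-1 over HSP70, was -0.067 over the members and -0.003 over all genes in hippocampus, and -0.015 over the members and 0.005 over all genes in cortex. Standard errors of the members had a median of 0.207 in hippocampus and 0.195 in cortex.

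The members with the smallest p in hippocampus are described by their values. Kcnf1 had 27.6, 23.3, 21.9, 27.8 and 18.9 CPM with YB-1, against 47.3, 34.1, 23.6, 23.3 and 31.7 CPM with HSP70, which overlap. Its log2 fold change was -0.422 ± 0.201 (unadjusted p = 0.0538, adjusted p = 1), and -0.235 without HSP70 replicate 1. Kcnk13 had 8.88, 20.7, 15.6, 13.1 and 16.5 CPM with YB-1, against 17.3, 16.3, 17, 27.8 and 25.7 CPM with HSP70, a change of -0.476 ± 0.23. Also negative were Kcnk1 (-0.24 ± 0.122) and Kcnj9 (-0.258 ± 0.149). The positive values with the smallest p were Kcns2 (0.298 ± 0.182, or 0.177 without HSP70 replicate 5), Kcnb2 (0.41 ± 0.292, or 0.233 without YB-1 replicate 1) and Kcnq3. The Kcnq3 value of 0.219 became 0.0832 without HSP70 replicate 2, 0.136 without replicate 4 and 0.337 without replicate 5. Each of these members had an adjusted p of 1. Some marker lists lay on 1 side of 0 between the hippocampal groups, though no marker was called. All 6 meningeal and all 5 oligodendrocyte markers were negative. All 5 dentate granule, 3 tested CA pyramidal, 4 microglial and 4 endothelial markers were positive, and the other marker lists went both ways. The part of these markers in the hippocampal values was not tested.

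In cortex the smallest member p was that of Kcnab3, with 22, 22, 34.4, 22.4 and 24.2 CPM with YB-1, against 50.9, 29.5, 42.2, 30.6 and 33.7 CPM with HSP70. YB-1 replicate 3 alone lay inside the HSP70 range. The log2 fold change was -0.582 ± 0.185 (unadjusted p = 0.00558, adjusted p = 0.858). Kcnd2, the dendritic A-type channel, had 25.2, 19.3, 28.5, 12.1 and 24.5 CPM with YB-1, against 42.5, 30.6, 27.2, 30.2 and 25 CPM with HSP70 (-0.498 ± 0.206, unadjusted p = 0.0269). Kcnk1 had 57, 56.4, 57, 65.9 and 57.7 CPM with YB-1, against 61.1, 69.99, 81, 64.6 and 78.5 CPM with HSP70 (-0.276 ± 0.127, unadjusted p = 0.0445). In each of these, part of the YB-1 range reached the HSP70 range. Kcna2 had -0.365 ± 0.185, and -0.187 without HSP70 replicate 1.

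On the positive side in cortex, Kcng1 had 19.9, 32.6, 25.5, 34.9 and 28.9 CPM with YB-1, against 18.4, 20.5, 21.2, 24 and 20.9 CPM with HSP70 (0.425 ± 0.167, unadjusted p = 0.0205). Kcnj10 had 211, 219, 313, 231 and 329 CPM with YB-1, against 228, 208, 188, 219 and 218 CPM with HSP70 (0.293 ± 0.148). The groups overlap for both. Kcnmb4, the neuronal BK beta subunit, had 0.403 ± 0.216 and Kcnh6 had 0.597 ± 0.361. Each of the 8 had an adjusted p of 0.858. With each library left out in turn, Kcnd2 ran from -0.607 to -0.356, Kcng1 from 0.338 to 0.53 and Kcnmb4 from 0.28 to 0.501. Beside these values stand other differences between the cortical groups. One was depth. Another was the summed interneuron markers, 521 to 622 CPM with YB-1 and 715 to 897 CPM with HSP70, though none of the 7 markers was called. A single library, YB-1 replicate 4, held 652 CPM of the striatal markers, with 168 to 279.7 CPM in the other cortical libraries. That library was also the shallowest, and had the lowest Kcnd2 and the highest Kcng1 and Kcnmb4 levels in cortex. The part of the markers in these values was not tested. With counts thinned to the shallowest cortical library the number of members called was 0. None of the partner lists held a called gene between treatments in either tissue.

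**Figure D5:**
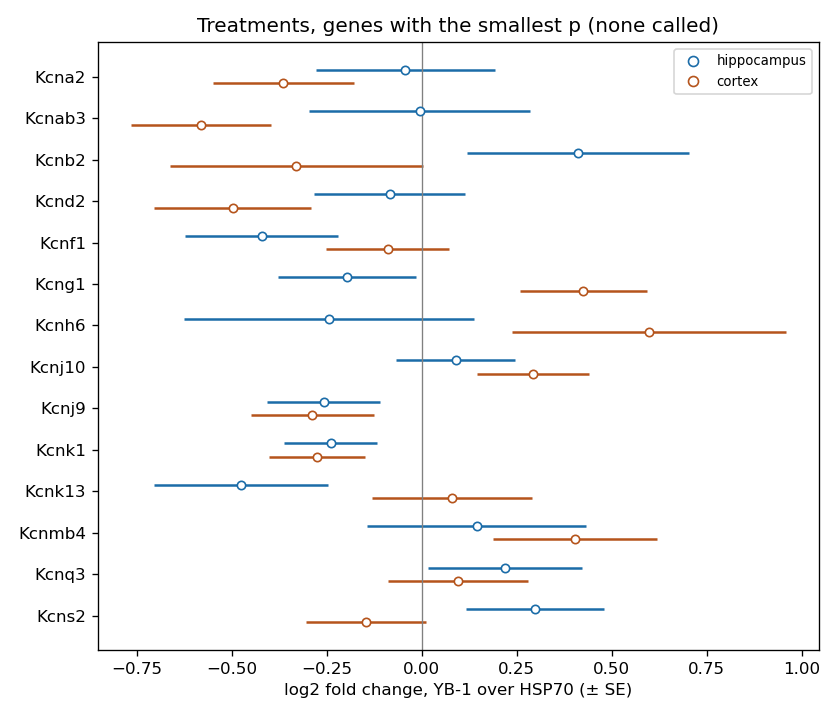
Log2 fold change of YB-1 over HSP70 (x axis, ± SE) in hippocampus and cortex of named potassium channel genes with the smallest p in each direction in either tissue. All points are open because none was called, and the values furthest from 0 are Kcnh6 at 0.597 and Kcnab3 at -0.582, both in cortex.

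Whether the tissue difference depended on the treatment was tested as an interaction over all 20 libraries, (hippocampus over cortex with YB-1) over (the same with HSP70). No member was called, as no gene was (0% of 14616), and 1 of 74 members (1.35%) had an unadjusted p under 0.05, against 1.55% of all genes. This was Kcng1, described above. Next came Kcns2 (0.44 ± 0.231, unadjusted p = 0.0686) and Kcnk13 (-0.556 ± 0.315, unadjusted p = 0.0898), each with an adjusted p of 1. The 8 members called between tissues in 1 treatment alone are therefore not shown to differ between treatments.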

How the data were processed

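The 20 libraries were deposited as whole-number read counts per Ensembl gene, 1 library a file. The submitters' processing notes name Trimmomatic, STAR, featureCounts and GRCm39, with versions, gene annotation and strand setting not given in the sources used here. The gene counts summed to the deposited assigned total in all 20 files. The 12 summary entries were left out (reads outside genes 2.45% to 4.58%, ambiguous reads 4.12% to 4.58% of a library). Symbols, found for 99.4% of entries, and exon lengths came from GENCODE M21, made for GRCm38.

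Tests on counts used edgeR 4.0.16 (R 4.3.3): TMM, filterByExpr, robust quasi-likelihood F-tests, two-sided, Benjamini-Hochberg over all genes tested, threshold 0.05. Treatments were compared within a tissue (10 libraries), tissues and interaction over 20 libraries. Fold changes are log2, with SE. CPM is TMM-scaled, and CPM per kb is divided by exon length. The depth of 6414215 to 15148078 assigned reads limits precision for members near 1 CPM. The tests were tried on simulated counts, with changes set in genes drawn from all those tested. Between treatments, 11.9% of 1.5-fold changes were recovered in hippocampus and 17.9% in cortex. For 2-fold changes it was 50.7% in hippocampus and 59.7% in cortex. The interaction recovered 1.49% of 1.5-fold and 13.4% of 2-fold changes, so changes of these sizes can be missed. No 2 libraries of a group were duplicates (chi-square per degree of freedom at least 10.5).

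The members and lists were chosen with earlier results of these data known. Named are the 12 members in each direction with the smallest p called in both treatments, 4 a direction in each treatment comparison, 3 for the interaction, the top gene per kb of each subfamily, 17 textbook channels, every other called member, and partner genes that were called; Kcne2 and uncalled relatives such as Kcnh2 were added after their values were seen. Deviations of same-numbered hippocampal and cortical libraries from their group means correlated at 0.207 to 0.394 (YB-1) and 0.198 to 0.624 (HSP70) over 14616 genes, all above 0.1, and numbers were taken to pair the tissues. Libraries of unlike number were not compared and the labels do not give the animal, so this pairing is an assumption. The main tissue tests had no block by number. Alternatives were RLE size factors, DESeq2 1.42.0, limma-voom 3.58.1 with quality weights, no filter, a mean of at least 1 CPM, other sets of libraries in the fit, a non-robust fit, a replicate block, each library left out and, chosen after seeing the depths, thinned counts. Some genes that these rules take are not reported here; counts over all members include them.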

Additional observations from a re-analysis of the deposited data

Results flagged for a closer look

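In groups of 5 libraries, a library was singled out where its gap to the nearest other exceeded 0.71 of the group's range (Dixon's 95% limit). This was checked for 47 named members, 188 groups in all, of which chance alone gives about 1 in 20, and 13 values in 12 genes passed.

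The genes share their libraries, so these flags are not independent of each other. Of the 13, 5 were in cortical HSP70 replicate 1. Over all genes that library also stood apart, with a chi-square per degree of freedom of 67.8 to 109 against the others of its group. Among those others it was 13.8 to 37.5. Kcna2 was high there at 124 CPM (69.98 to 78.6 CPM in the other 4 libraries of the group), as were Kcnab1 at 34.6 CPM (13.9 to 19.4) and Kcnh7 at 28.6 CPM (10.6 to 13.6). Low in the same library were Kcnab2 at 743 CPM (1099 to 1225) and Kcnk3 at 29.7 CPM (47 to 49.8).

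Cortical YB-1 replicate 3 was high for Kcnab3 at 34.4 CPM (22 to 24.2) and for Kcnh5 at 7.07 CPM (2.02 to 3.02). Cortical YB-1 replicate 4 was high for Kcnh4 at 16.9 CPM (6.67 to 8.14) and for Kcnk1 at 65.9 CPM (56.4 to 57.7). In hippocampus with HSP70, Kcnab3 was low in replicate 5 at 4.06 CPM (10.9 to 12.8), Kcnj11 was high in replicate 3 at 62.5 CPM (39.2 to 45.8) and Kcnj8 was high in replicate 4 at 8.47 CPM (3.16 to 4.11). Kcnj6 was high in cortical HSP70 replicate 5 at 14.5 CPM (7.53 to 9.49).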

How the results depend on the processing

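Alternatives were run for the counts of members called and for 69 values of single members; none of these 69 changed sign, and other printed values, such as those of partners and of most uncalled members, were not recomputed. The median over all genes, near 0, did change sign, for example from 0.0024 to -0.012 with RLE size factors between tissues with YB-1. Members called between tissues numbered 15 to 21 with YB-1 and 18 to 23 with HSP70 when each library was left out, and 18 to 24 and 20 to 28 under the other alternatives, beside 20 and 22; for treatments and interaction the number was 0 under all. Over all genes the share called was 4.82% to 6.08% with YB-1 and 7% to 9.37% with HSP70 when each library was left out. Under the other alternatives the share was 2.89% to 8.37% with YB-1 and 3.93% to 12.2% with HSP70, beside 6.51% and 8.61%. The replicate block called 23 members with YB-1 (19 of the 20) and 28 with HSP70 (22 of the 22), and 0 elsewhere. Of all genes the block called 8.37% with YB-1 and 12.2% with HSP70. Between treatments, deviations of same-numbered libraries correlated at -0.283 to 0.496 in hippocampus and at -0.135 to 0.167 in cortex, and these were not taken as pairs. Thinned counts called 21 members with YB-1 and 23 with HSP70, beside 6.42% and 8.46% of all genes. In cortex, between treatments, DESeq2 called 4 genes, limma-voom 2, the fit with no filter on low counts 9 and that without HSP70 replicate 3 called 1, none a member. Of 1272 values of single members under an alternative, 1195 kept their side of the threshold, 61 lost it and 16 gained it; the causes were not tested. Of the 17 members called in both treatments, 12 (11 lower and Kcng2) passed under all 36 alternatives, the largest adjusted p being 0.0489 for Kcnf1.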
